A study of Mus musculus with 4 samples.

Results

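Wnt4, Wnt5a, Wnt5b, Wnt6, Wnt2b, Rspo1, Rspo2 and Rspo3 are the secreted Wnt and R-spondin ligands followed here in the subdural meninges of the mouse cerebellum. The 8 genes were chosen by symbol from the 32285 genes of the count matrices, and all 8 were present. The cells came from NdpWT and NdpKO mice, 2 libraries each, and single cells were sequenced in droplets with a 10x Genomics 3' kit that counts unique molecular identifiers (UMIs), 1 for each captured transcript. Mice of both groups carried Neurod2-SmoA1+/-, a transgene in which the Neurod2 promoter, active in granule neurons, drives an activated Smoothened, on a C57BL/6 background. NdpKO mice lacked Ndp, the gene for norrin, a ligand of Frizzled-4. For age, the labels hold both postnatal days 6 to 8 (the age field) and 7 to 9 (the protocol). Each library was a pool of 5 cerebella collected from 3 litters, without dura or choroid plexus, so the values per library are values per pool.

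Wnt proteins are lipid-modified ligands that bind Frizzled receptors. With the co-receptors Lrp5 and Lrp6 they stabilise beta-catenin, and with Ror1, Ror2 or Ryk they act on cell polarity and movement without it. R-spondins bind Lgr4, Lgr5 and Lgr6 and hold back the ubiquitin ligases Znrf3 and Rnf43, which leaves more Frizzled on the cell surface. The fibroblasts of the pia and arachnoid lie against the brain surface and its vessels and are known to secrete Wnt ligands.

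The libraries held 5599 to 12561 cells after filtering, 37915 in all, with medians of 7220 to 14296 UMIs per cell. NdpKO replicate 1 stood apart: 44.1% of its barcodes passed the filters, against 64.8 to 67.0% in the others, and 21.8% were over 10% mitochondrial UMIs. Levels are in CPM, the UMIs of a gene scaled to a fixed UMI total of the cell group in each library. Ndp was at 2.07 and 1.35 CPM over all cells of NdpWT replicates 1 and 2, on 200 and 138 UMIs. In NdpKO replicates 1 and 2 it was at 0.411 and 0.470 CPM, on 40 and 50. The labels used here do not say which part of Ndp is deleted, so UMIs from its 3' end need not be absent. Pairs of libraries shared 15 to 47 cell barcodes. Fibroblasts numbered 8508, and 5857 of them fell into 6 subclusters large enough to compare between genotypes, each called here by its leading genes: Col15a1/Ntm (F1, 1707 cells), Dcdc2a/Cyp26b1 (F2, 1634), Nppc/Slc16a9 (F4, 873), Igfbp3/Moxd1 (F5, 856), Mfap4/Eln (F7, 507) and Dapl1/Msln (F9, 280). The Dapl1/Msln cells had 3 arachnoid barrier markers and 0 markers of any fibroblast subtype list among their leading genes. They are called fibroblasts here because they came from clusters of that name, and the name is uncertain for them. The Nppc/Slc16a9 cells had 5 markers of the Ecrg4/Nppc list. The 8 ligands were left out of the genes used for clustering, so their levels did not define these groups. The levels across groups are given as a description, with no test.

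Most transcripts of 7 of the 8 ligands came from fibroblasts. The exception was Wnt5b, of which fibroblasts held 33.5 to 48.6% of UMIs per library, endothelial cells 11.2 to 26.7% and mural cells (pericytes and smooth muscle) 23.7 to 28.3%. Fibroblasts held 90.3 to 94.9% of Wnt6 UMIs, 87.7 to 95.5% of Rspo3, 87.7 to 92.5% of Wnt5a, 83.9 to 91.9% of Wnt4 and at least 76.1% of Rspo1. For the rarely detected Wnt2b (69 to 95 UMIs per library over all cells) and Rspo2 (55 to 104) the fibroblast share was 62.1 to 81.5% and 53.8 to 78.3%. Among the 6 subtypes and 8 other classes compared, the highest mean level lay in the Igfbp3/Moxd1 fibroblasts for Wnt4, Wnt6, Wnt2b, Rspo1 and Rspo2, in the Mfap4/Eln fibroblasts for Wnt5a, in the Nppc/Slc16a9 fibroblasts for Rspo3 and in mural cells for Wnt5b.

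**Figure D1:**
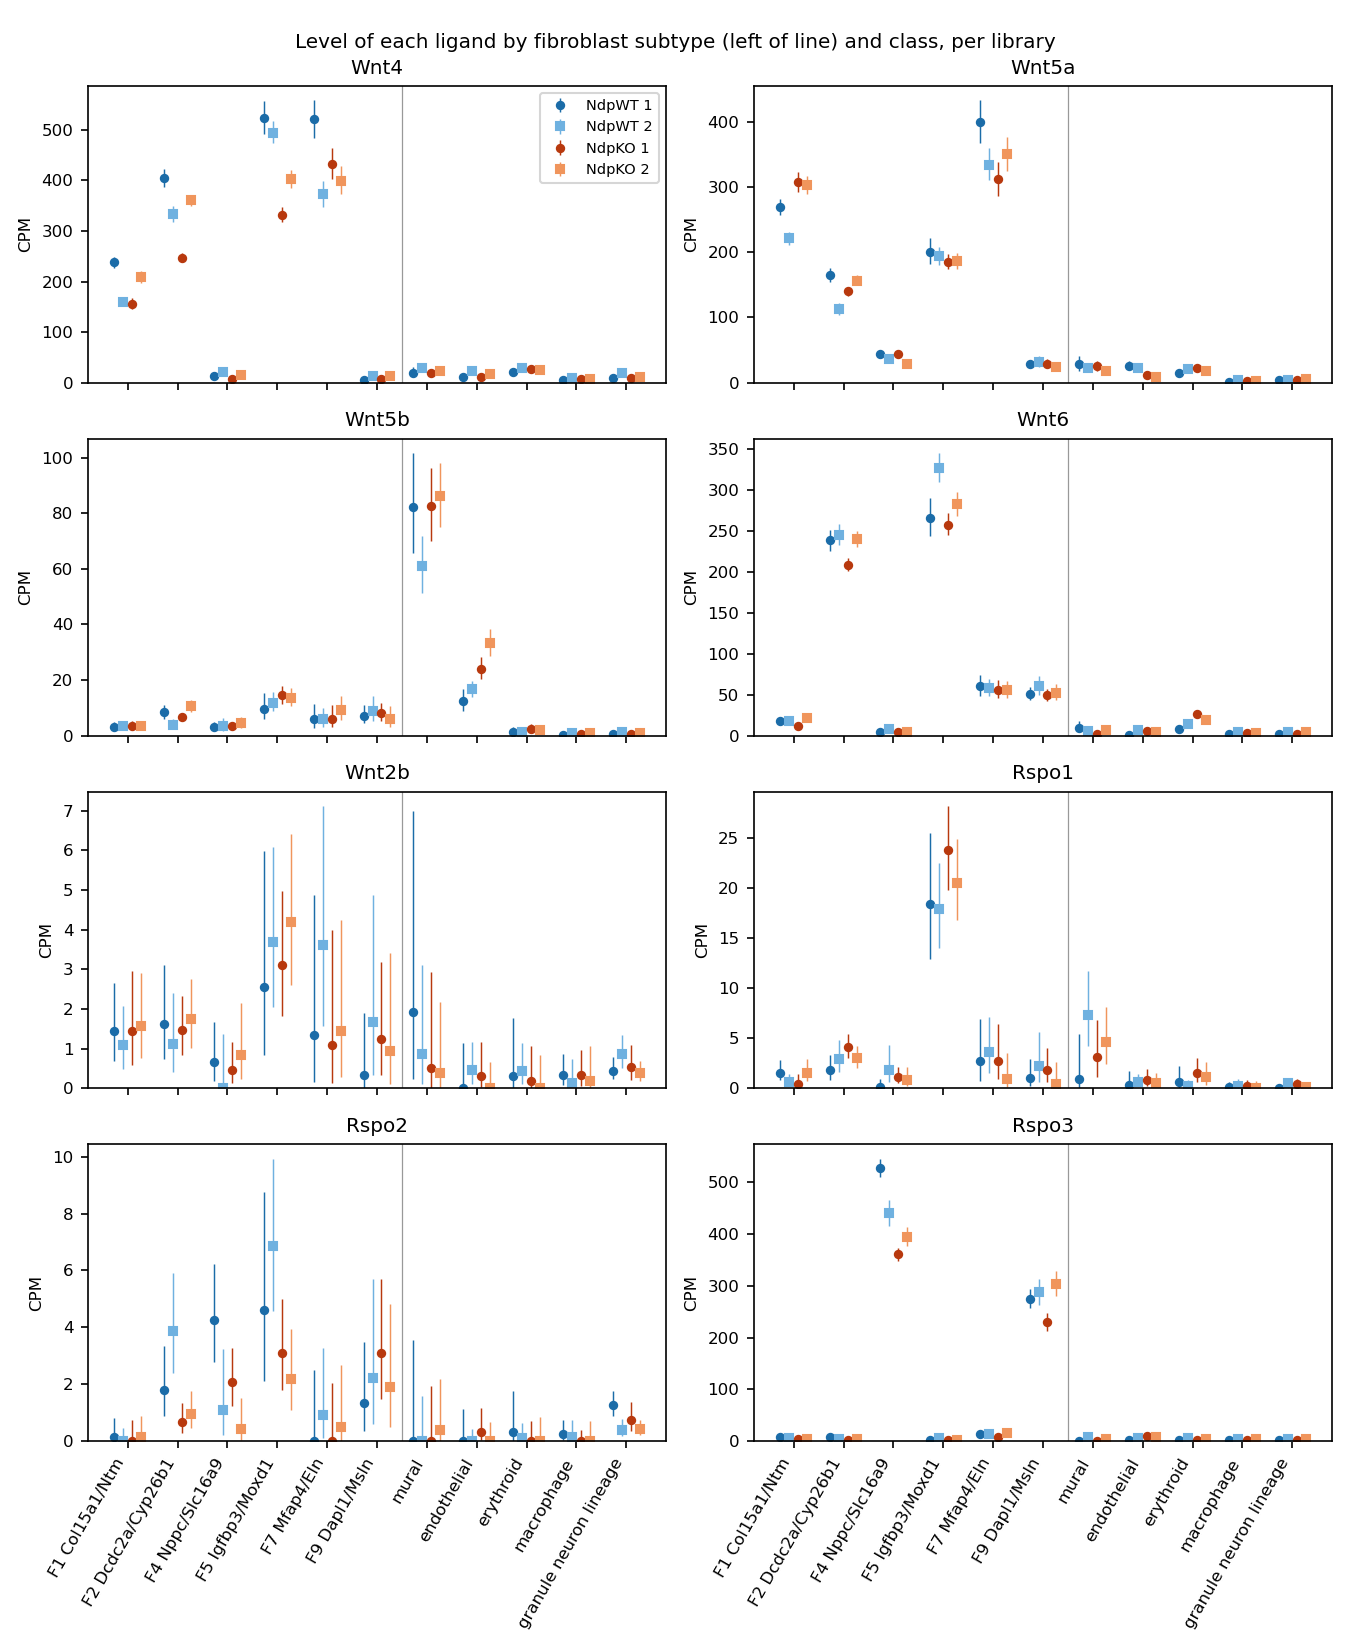
Level of each ligand in CPM (linear axis) in 6 fibroblast subtypes, left of the vertical line, and 5 other cell classes. Each point is 1 library with its exact 95% Poisson interval, which covers counting error only. Rspo3 was high in F4 (361 to 527 CPM) and F9 (230 to 304 CPM), where Wnt4 was at 21.9 CPM or less.

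Rspo3, the R-spondin best known from vascular development, was concentrated in 2 of the compared subtypes, 1 of which bore arachnoid barrier markers. In the Nppc/Slc16a9 fibroblasts it was at 527 and 440 CPM in NdpWT replicates 1 and 2 and at 361 and 395 CPM in NdpKO replicates 1 and 2. In the Dapl1/Msln fibroblasts it was at 275 and 288 CPM in NdpWT and at 230 and 304 CPM in NdpKO. The ranges of these 2 subtypes did not overlap. Among the 14 groups with at least 50 cells in every library, the next highest was the Mfap4/Eln subtype, at 8.83 to 15.5 CPM, against a mean of 274 ± 31.8 CPM (SD, n = 4) in the Dapl1/Msln cells. From there down, neighbouring groups overlapped in their library ranges. Monocytes or dendritic cells (2.61 to 16.1 CPM), endothelial cells (2.48 to 10.9 CPM), and the Col15a1/Ntm (3.70 to 7.51 CPM), Dcdc2a/Cyp26b1 (2.32 to 7.45 CPM) and Igfbp3/Moxd1 fibroblasts (1.80 to 5.40 CPM) overlapped with erythroid cells (2.85 to 5.62 CPM) and macrophages (2.43 to 4.06 CPM). Mural cells (0 to 7.31 CPM), the granule neuron lineage (3.09 to 4.66 CPM), other neurons (4.15 to 6.15 CPM) and cycling cells (2.55 to 4.36 CPM) were also in that range.

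Among classes too small to compare, single libraries had more Rspo3 than the Mfap4/Eln cells. Ependymal cells were at 73.5 and 4.26 CPM in the NdpWT libraries (11 and 1 UMIs) and at 34.2 and 0 CPM in the NdpKO libraries (12 and 0 UMIs). Their name is uncertain. It rests on 3 ependymal markers, and the leading gene of these 65 cells was Ttr, which is on the choroid plexus marker list. Neutrophils were at 23.3 and 0 CPM in NdpWT (1 and 0 UMIs) and at 73.1 and 9.41 CPM in NdpKO (16 and 1 UMIs). The oligodendrocyte lineage had 2.71 to 8.47 CPM.

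Shares of cells gave the same picture for Rspo3. A UMI of Rspo3 was found in 89.2 to 97.3% of Nppc/Slc16a9 cells and in 78.9 to 87.1% of Dapl1/Msln cells. After thinning each cell to 2000 UMIs the shares were 40.9 to 62.5% and 32.3 to 38.6%. Erythroid cells, which should lack the gene, had 3.17 to 5.71% unthinned and 0.781 to 1.53% thinned. The erythroid class included a cluster of 109 cells with the fibroblast markers Dcn, Slc6a13 and Col3a1 among its leading genes. Its values for all ligands may thus hold fibroblast RNA and are not a clean floor. Median depths were 15971 to 36243 UMIs per Nppc/Slc16a9 cell and 6539 to 19600 per erythroid cell. A small subcluster led by Col8a1 and Krtdap (53 cells, 1 to 31 per library, 4 markers of the Ecrg4/Nppc list) was higher still, at 771 and 1405 CPM in the NdpWT libraries and at 964 and 1479 CPM in the NdpKO libraries. Its last value rests on 26 UMIs of 1 cell, and no test was made on it.

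Wnt6, a ligand of epithelia and mesenchyme that can signal through beta-catenin, marked a different pair of subtypes. In the Igfbp3/Moxd1 fibroblasts it was at 266 and 328 CPM in NdpWT replicates 1 and 2 and at 258 and 283 CPM in NdpKO replicates 1 and 2. In the Dcdc2a/Cyp26b1 fibroblasts the values were 239, 246, 209 and 240 CPM in the same order. All 4 values of the Igfbp3/Moxd1 cells lay above all 4 of the Dcdc2a/Cyp26b1 cells. The Mfap4/Eln (55.6 to 60.1 CPM) and Dapl1/Msln cells (49.1 to 60.5 CPM) followed with overlapping ranges. The Col15a1/Ntm (12.3 to 21.7 CPM) and Nppc/Slc16a9 cells (3.90 to 8.15 CPM) did not exceed the range of erythroid cells (7.60 to 26.3 CPM), and monocytes or dendritic cells lay within it or below (6.08 to 18.3 CPM). Neutrophils, too few to compare, had 69.8 and 0 CPM of Wnt6 in NdpWT replicates 1 and 2 (3 and 0 UMIs). In NdpKO replicates 1 and 2 they had 68.5 and 9.41 CPM (15 and 1 UMIs), the 15 UMIs in 9.09% of 11 cells. Mural cells were at 1.58 to 9.68 CPM, macrophages at 2.03 to 4.42 CPM and the granule neuron lineage at no more than 4.50 CPM, endothelial cells at 0.621 to 6.67 CPM and cycling cells at 0.972 to 3.21 CPM. A UMI of Wnt6 was found in 81.2 to 89.3% of Igfbp3/Moxd1 cells and, after thinning, in 32.7 to 40.6%, against 3.08 to 9.39% and 0.391 to 2.63% of erythroid cells. The highest Wnt6 of any subcluster, 709, 752 and 643 CPM in 3 libraries, was in 29 cells led by Cyp26b1 and Tagln, which NdpKO replicate 2 lacked.

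Rspo1, a second R-spondin, was low, with its highest level in the Igfbp3/Moxd1 fibroblasts. There it was at 18.5 and 17.9 CPM in NdpWT replicates 1 and 2 (36 and 73 UMIs) and at 23.8 and 20.6 CPM in NdpKO replicates 1 and 2 (130 and 103 UMIs). No other compared group reached that range. Mural cells came next, at 0.968 to 7.31 CPM, overlapping the Dcdc2a/Cyp26b1 cells at 1.82 to 4.13 CPM. In the Igfbp3/Moxd1 cells 21.0 to 39.4% had a UMI of Rspo1, and 2.45 to 4.55% after thinning, against 0.162 to 2.04% and at most 0.219% of erythroid cells. The 29 cells led by Cyp26b1 and Tagln again had the highest level of any subcluster, at 48.3, 36.7 and 66.8 CPM of Rspo1 in 3 libraries, on 2 to 39 UMIs.

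Wnt4, known for its part in kidney and gonad development, was spread over 4 subtypes. In the Igfbp3/Moxd1 fibroblasts it was at 523 and 494 CPM in NdpWT replicates 1 and 2 and at 332 and 402 CPM in NdpKO replicates 1 and 2. The Mfap4/Eln cells had 520, 372, 433 and 399 CPM in the same order, the Dcdc2a/Cyp26b1 cells 404, 333, 247 and 360 CPM, and the Col15a1/Ntm cells 238, 160, 156 and 209 CPM. The first 3 overlapped in their library ranges, and the Col15a1/Ntm cells lay below them without overlap. The Nppc/Slc16a9 (7.46 to 21.9 CPM) and Dapl1/Msln cells (5.43 to 14.2 CPM) held no more Wnt4 than erythroid (20.9 to 28.3 CPM) or mural cells (19.4 to 28.4 CPM). Outside fibroblasts the classes with at least 10 UMIs in a library also included endothelial cells (11.5 to 23.2 CPM), astroglia (13.4 to 34.0 CPM), the granule neuron lineage (8.77 to 19.8 CPM), macrophages (5.92 to 10.3 CPM), cycling cells (8.08 to 15.6 CPM), monocytes or dendritic cells (6.70 to 24.3 CPM), neutrophils (0 to 45.7 CPM, at most 10 UMIs), the oligodendrocyte lineage (at most 6.98 CPM) and ependymal cells (15.5 to 85.4 CPM), which had 30 UMIs in NdpKO replicate 1 and at most 8 elsewhere.

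Among the compared groups, Wnt6, Rspo1 and Wnt4 were highest in the Igfbp3/Moxd1 subtype, as were Wnt2b and Rspo2, whose sequences are not printed. The sequences before the start sites of Wnt6, Rspo1 and Wnt4 are shown. They are RefSeq promoter windows of GRCm38.p6, plus strand, 5′ to 3′, cut at the annotated gene start, with each CG dinucleotide in capitals. Wnt6 is on chr1:74771642-74771891, Rspo1 on chr4:124986180-124986429 and Wnt4 on chr4:137277385-137277488.
Wnt6: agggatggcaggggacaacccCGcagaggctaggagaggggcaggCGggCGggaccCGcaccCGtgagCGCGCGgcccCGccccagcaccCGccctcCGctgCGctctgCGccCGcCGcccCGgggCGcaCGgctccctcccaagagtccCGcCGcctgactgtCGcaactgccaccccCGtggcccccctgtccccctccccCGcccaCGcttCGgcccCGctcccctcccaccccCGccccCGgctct
Rspo1: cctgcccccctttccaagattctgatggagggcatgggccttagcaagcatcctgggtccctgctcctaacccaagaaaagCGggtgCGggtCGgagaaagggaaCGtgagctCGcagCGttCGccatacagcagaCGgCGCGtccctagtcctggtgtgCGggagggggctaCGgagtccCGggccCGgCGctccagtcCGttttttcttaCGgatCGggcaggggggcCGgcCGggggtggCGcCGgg
Wnt4: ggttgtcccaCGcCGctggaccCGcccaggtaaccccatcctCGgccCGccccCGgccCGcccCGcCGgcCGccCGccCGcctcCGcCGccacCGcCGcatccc
The Wnt6 stretch holds 28 CG in 250 bases, the Rspo1 stretch 22 in 250 and the Wnt4 stretch 16 in 104. Over full windows of 300 bases the counts were 31, 29 and 51, against a median of 7 over 32851 windows. Promoter windows matched 5 of the 8 ligands. They were searched on both strands for 3 motifs, none of which lies within another. The TCF/LEF core CTTTGA occurred in 16.0% of all windows. The retinoic acid receptor half-site AGGTCA occurred in 16.3%. The box TATAAA occurred in 13.6%. No match was found in the windows of Wnt6, Rspo1, Wnt4 and Wnt2b, and the TCF/LEF core occurred in 1 of 3 windows of Wnt5b, 71 bases before that start.

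Wnt5a, the classic ligand of Ror receptors, was broadest. In the Mfap4/Eln fibroblasts it was at 399 and 334 CPM in NdpWT replicates 1 and 2 and at 311 and 350 CPM in NdpKO replicates 1 and 2. The Col15a1/Ntm cells had 269, 221, 307 and 302 CPM, the Igfbp3/Moxd1 cells 201, 194, 185 and 187 CPM, and the Dcdc2a/Cyp26b1 cells 165, 112, 140 and 157 CPM. These 4 subtypes did not overlap with their neighbours in the order of means. The Nppc/Slc16a9 cells followed at 28.1 to 44.4 CPM, in a range shared with neurons outside the granule lineage (27.0 to 51.6 CPM), then the Dapl1/Msln cells at 23.6 to 31.1 CPM. Astroglia, with too few cells to test (23 to 142 per library), were at 89.1, 63.7, 86.7 and 90.7 CPM. Mural cells were at 18.7 to 28.1 CPM, erythroid cells at 14.2 to 22.3 CPM, endothelial cells at 8.26 to 26.4 CPM, monocytes or dendritic cells at 4.69 to 19.1 CPM, the granule neuron lineage at 4.05 to 5.15 CPM, cycling cells at 3.73 to 4.65 CPM, macrophages at 1.94 to 4.56 CPM and the oligodendrocyte lineage at 2.71 to 7.06 CPM. Neutrophils had 0 to 54.8 CPM of Wnt5a and T or NK cells 0 to 21.4 CPM, on at most 12 and 10 UMIs in a library.

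Wnt5b, the close relative of Wnt5a, peaked in mural cells, at 82.3 and 61.1 CPM in NdpWT replicates 1 and 2 and 82.5 and 86.1 CPM in NdpKO replicates 1 and 2. Every other group compared was lower, the nearest being endothelial cells at 12.4 to 33.2 CPM. Fibroblast subtypes held 9.75 to 14.5 CPM (Igfbp3/Moxd1) down to 3.18 to 3.52 CPM (Col15a1/Ntm). Erythroid cells had 1.12 to 2.31 CPM, cycling cells 1.51 to 2.46 CPM and the granule neuron lineage 0.712 to 1.45 CPM. A UMI of Wnt5b was found in 27.2 to 61.0% of mural cells, and in 13.5, 11.6, 9.28 and 14% after thinning, against 0.812 to 3.67% and 0.0848 to 0.438% of erythroid cells.

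Wnt2b and Rspo2 were near the limit of detection. Wnt2b, a beta-catenin ligand of the eye and gut, reached 2.57 to 4.20 CPM in the Igfbp3/Moxd1 fibroblasts, on 5 to 21 UMIs per library, and overlapped with the Mfap4/Eln cells at 1.10 to 3.62 CPM. The Dcdc2a/Cyp26b1 cells had 1.11 to 1.74 CPM and the Col15a1/Ntm cells 1.09 to 1.58 CPM. Rspo2, an R-spondin of limb and lung development, was at 4.62 and 6.87 CPM in NdpWT and 3.11 and 2.20 CPM in NdpKO Igfbp3/Moxd1 cells, on 9 to 28 UMIs. The Nppc/Slc16a9 cells had 4.26, 1.11, 2.07 and 0.420 CPM of Rspo2, the Dcdc2a/Cyp26b1 cells 1.82, 3.87, 0.688 and 0.965 CPM, and the Dapl1/Msln cells 1.36 to 3.11 CPM. In the granule neuron lineage Wnt2b was at 0.379 to 0.861 CPM, Rspo2 at 0.408 to 1.27 CPM and Rspo1 at 0.0375 to 0.498 CPM.

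**Figure D2:**
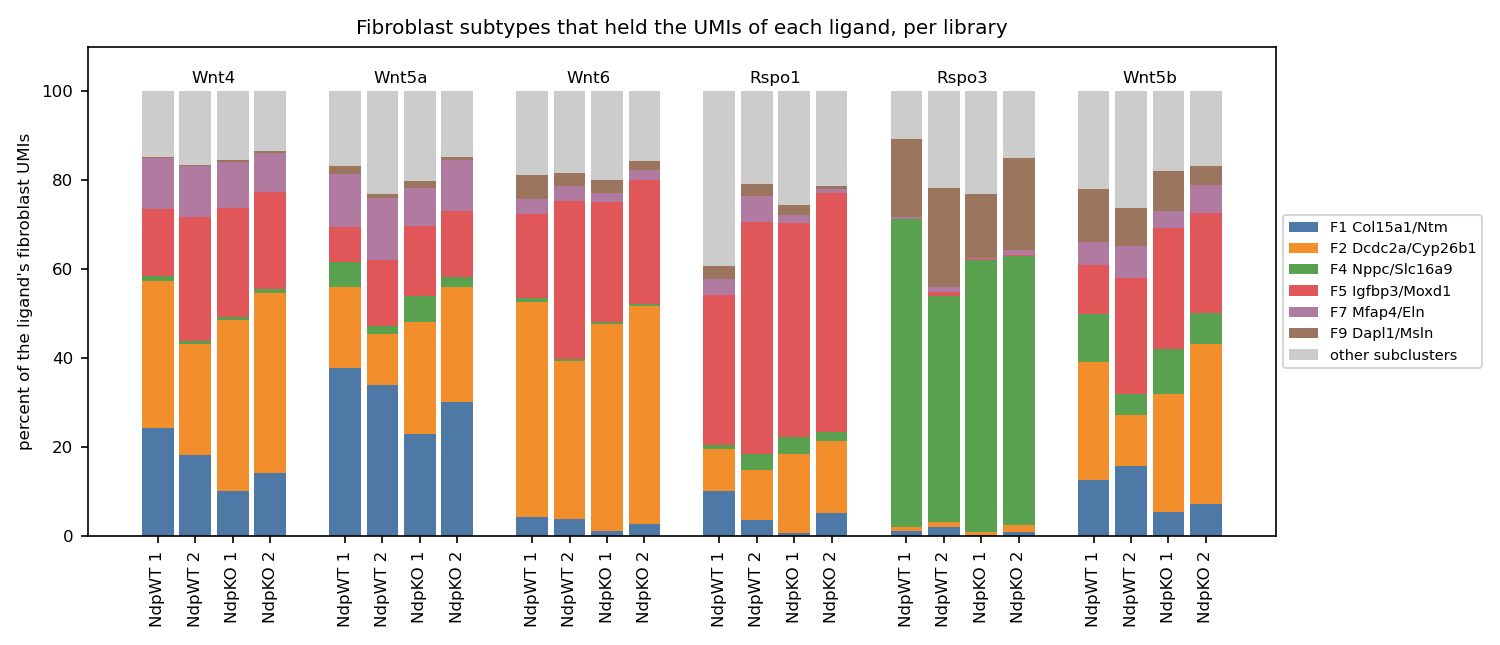
Percent of each ligand's fibroblast UMIs (vertical axis) that lay in each subtype, 1 bar per library, with all other fibroblast subclusters in grey. F4 held 50.8 to 69.3% of fibroblast Rspo3, and F2 and F5 together held most of fibroblast Wnt6.

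The genes with the most similar pattern were found by Pearson's r of log2(CPM + 1) over 20 cell groups, each the mean of its libraries, among 16758 genes. All groups share the same 4 libraries, so r is given with no test. For Wnt4 they were Gm6209 (0.94), Col4a6 (0.92) and Clec3b (0.92). For Wnt5a they were Plekhh2 (0.92), Rbms3 (0.92) and Thbs3 (0.91). For Wnt6 they were Ranbp3l (0.95), Serpind1 (0.92) and Aldh1a2 (0.92), the last a retinoic acid synthesis enzyme. For Rspo3 they were Ctxn3 (0.94), Slc26a7 (0.94) and Slc4a10 (0.94), the latter pair anion and bicarbonate transporters. For Wnt5b they were Mylk (0.95), the smooth muscle myosin kinase, Itga1 (0.95) and Gm44946 (0.93). The closest were Gm29776, Kcnt2 and Mmp23 (0.90 to 0.91) for Wnt2b, Atp13a5, Adra2b and Pla1a (0.83 to 0.89) for Rspo1, and Aifm3, Misp and Cxadr (0.83 to 0.85) for Rspo2. The groups included classes too small to compare, where a few UMIs can set the mean of a rarely detected gene. Ependymal cells had 3 UMIs of Rspo2 in NdpWT replicate 1, 3 in NdpKO replicate 1 and 0 in the other libraries. Neutrophils had 2 UMIs of Rspo1 in NdpWT replicate 1, among 8 cells, and 0 in the other libraries. How far r for Rspo1 and Rspo2 rests on these UMIs was not tested. Between members the highest r was 0.84, for Wnt4 with Wnt5a and for Wnt2b with Wnt6.

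Other genes of the pathway also differed between subtypes. Among the other Wnt ligands, Wnt16 averaged 86.4 CPM in the Dapl1/Msln and 45.8 CPM in the Nppc/Slc16a9 fibroblasts, against 4.73 to 12.8 CPM in the other 4 subtypes. Wnt9a averaged 30.1 and 29.8 CPM and Wnt11 20.1 and 12.4 CPM in the same pair of subtypes. Wls, which carries Wnt proteins to the cell surface, averaged 296 to 485 CPM in all 6, and the glypicans Gpc3 and Gpc6, which bind Wnt proteins at the cell surface, 167 to 454 CPM and 120 to 210 CPM. Axin2, a beta-catenin target and feedback inhibitor, averaged 150 CPM in the Col15a1/Ntm cells, 52.6 to 62.0 CPM in the Dcdc2a/Cyp26b1, Igfbp3/Moxd1 and Mfap4/Eln cells, 17.9 CPM in the Dapl1/Msln cells and 9.17 CPM in the Nppc/Slc16a9 cells. The target Apcdd1 followed the same split, with 153, 56.5 to 69.9, 6.13 and 3.33 CPM. Tnfrsf19 was at 135 CPM in the Col15a1/Ntm and 5.61 CPM in the Nppc/Slc16a9 cells. Of the receptors, Fzd2 was at 119 to 223 CPM, Fzd3 at 35.4 to 46.3 CPM, Lrp6 at 69.1 to 164 CPM (highest in the Nppc/Slc16a9 cells), Ryk at 76.7 to 102.3 CPM and Lgr4 at 24.0 to 47.5 CPM over the 6 subtypes, and Lgr5 and Lgr6 were at 1.99 CPM or less. Znrf3 was at 5.48 to 12.5 CPM and Rnf43 at 1.62 to 8.86 CPM. The polarity genes Vangl1 and Daam1 were at 26.3 to 56.9 CPM and 33.7 to 105 CPM.

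The question of the genotype comparison is whether loss of norrin is accompanied by a change in the other ligands. In fibroblasts no ligand was called by edgeR's quasi-likelihood test on sums per library. Wnt4 was at −0.16 ± 0.18 (SE) on the log2 scale, NdpKO over NdpWT, Wnt5a at −0.12 ± 0.12, Wnt5b at 0.30 ± 0.18, Wnt6 at 0.24 ± 0.15, Wnt2b at 0.03 ± 0.30, Rspo1 at 0.46 ± 0.21, Rspo2 at −0.66 ± 0.36 and Rspo3 at −0.24 ± 0.42, with edgeR adjusted p of 0.904 to 0.994. Of the 8 members 0 were called, as were 0 of all 16200 genes (0% called), 901 of which had an unadjusted p under 0.05 and none of which was a member. DESeq2 called 49 genes and 0 members. The members' median change was −0.04, against −0.0007 over all genes.

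The direction of the Rspo3 change over all fibroblasts depended on which library was left out. Its level was 157 CPM in NdpWT replicate 1, 74.3 CPM in NdpWT replicate 2, 116 CPM in NdpKO replicate 1 and 82.4 CPM in NdpKO replicate 2. The Nppc/Slc16a9 cells made up 16.0, 5.97, 13.2 and 9.05% of the fibroblasts of these libraries, the same order as the level. The part of these shares in the level was not tested. Without NdpWT replicate 1 the change was 0.42, and without NdpWT replicate 2 it was −0.69, in both cases with edgeR adjusted p of 0.468 or more. Wherever 1 library was left out, its genotype was down to a single library, and the spread between libraries came from the pair of the other genotype only.

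Within the 6 subtypes 38 member tests could be made, and 0 passed. Of these, 4 had an unadjusted p under 0.05, and DESeq2 called 0. They were Wnt4 in the Igfbp3/Moxd1 cells, Rspo3 in the Nppc/Slc16a9 cells and Rspo2 in the Dcdc2a/Cyp26b1 and Igfbp3/Moxd1 cells. Over all genes, 897 of 12002 in the Igfbp3/Moxd1, 511 of 12235 in the Nppc/Slc16a9 and 818 of 12940 in the Dcdc2a/Cyp26b1 cells had an unadjusted p under 0.05. In the other subtypes these were 1141 of 12523 (Col15a1/Ntm), 502 of 10464 (Mfap4/Eln) and 632 of 11037 (Dapl1/Msln). The percent of all genes called was 0.176 in Col15a1/Ntm, 0 in Dcdc2a/Cyp26b1, 0.0163 in Nppc/Slc16a9, 0.025 in Igfbp3/Moxd1, 0 in Mfap4/Eln and 0.0544 in Dapl1/Msln cells.

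Wnt4 in the Igfbp3/Moxd1 fibroblasts was lower in both NdpKO libraries (332 and 402 CPM) than in both NdpWT libraries (523 and 494 CPM), a log2 change of −0.46 ± 0.15 with edgeR adjusted p of 0.478. With the replicate number as a block the edgeR adjusted p was 0.0151, while 297 of all 12002 genes were called, against 3 without the block. Rspo3 in the Nppc/Slc16a9 fibroblasts was likewise lower in both NdpKO libraries (361 and 395 CPM against 527 and 440 CPM), by −0.36 ± 0.15 with edgeR adjusted p of 0.999. Its approximate 95% interval ran from −0.65 to −0.06. In the Dapl1/Msln fibroblasts, the other Rspo3 subtype, the genotypes overlapped and the change was −0.10 ± 0.16 (−0.41 to 0.22). An exact two-sided permutation test of 2 against 2 libraries cannot go below p = 0.333. Full separation of the genotypes, as for Wnt4 and Rspo3 here and for ligands below, is thus given as description only.

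Wnt6 differed by −0.13 ± 0.15 in the Igfbp3/Moxd1 and −0.10 ± 0.13 in the Dcdc2a/Cyp26b1 cells, and the genotypes overlapped in both. The intervals, −0.42 to 0.16 and −0.36 to 0.16, leave out a 2-fold change. Wnt5a was at −0.15 ± 0.15 in the Mfap4/Eln cells and at 0.29 ± 0.14 in the Col15a1/Ntm cells, where both NdpKO libraries (307 and 302 CPM) lay above both NdpWT libraries (269 and 221 CPM). Rspo1 in the Igfbp3/Moxd1 cells was at 0.30 ± 0.21, again with both NdpKO libraries above. Rspo2 was at −1.15 ± 0.43 in the Igfbp3/Moxd1 and −1.76 ± 0.53 in the Dcdc2a/Cyp26b1 cells, on at most 28 UMIs in a library, with edgeR adjusted p of 0.553 and 0.622.

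The genotype change was not shown to differ between subtypes for any ligand. The F test of all subtype-by-genotype terms called 0 of 8 members and 73 of 13292 genes (0.549%), and the members' edgeR adjusted p ran from 0.715 for Rspo3 to 0.992 for Wnt6.

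**Figure D3:**
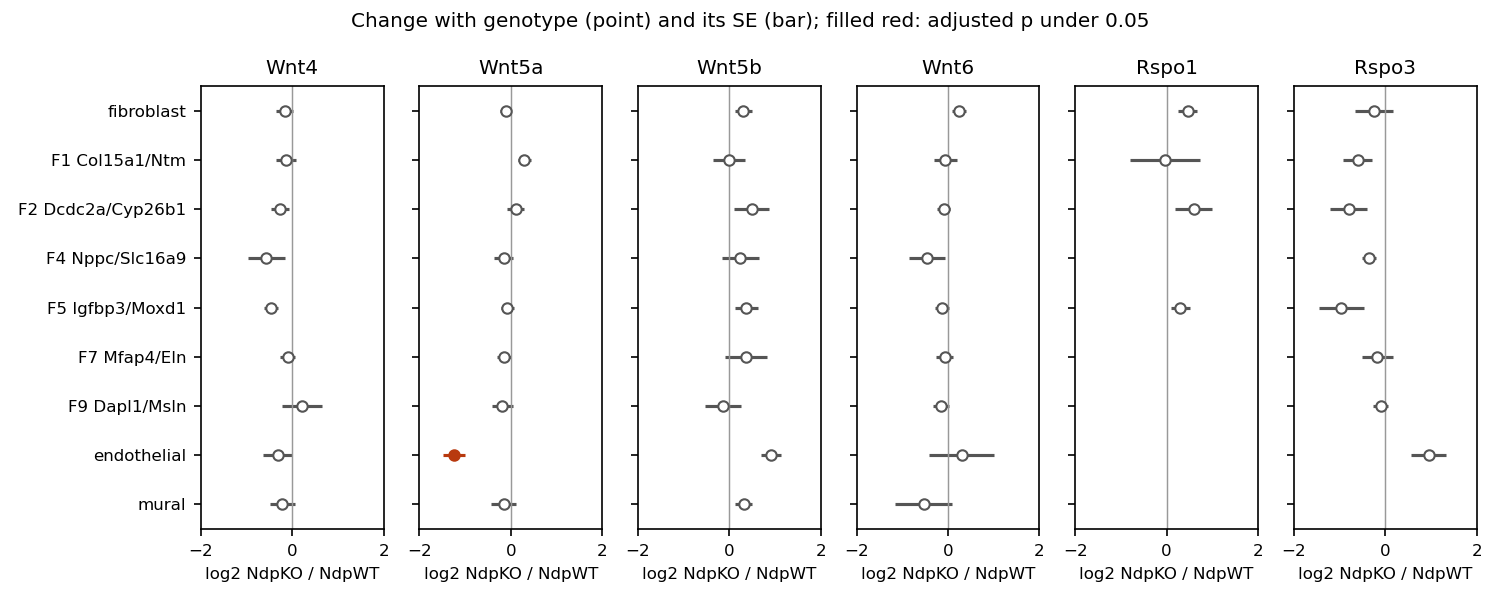
Log2 change of 6 ligands, NdpKO over NdpWT (horizontal axis), in all fibroblasts, 6 subtypes, endothelial and mural cells. Points are edgeR estimates from 2 libraries a genotype and bars are SE, with groups left out where the gene was too low to test. Wnt5a in endothelial cells, at −1.24, is the filled point.

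Of the pathway lists, 0 genes passed in fibroblasts or in any subtype. In all fibroblasts this was 0 of 5 tested other Wnt ligands, 0 of 8 ligand-processing genes, 0 of 12 Frizzled and Lrp receptors, 0 of 12 non-canonical receptors and polarity genes, 0 of 5 R-spondin receptors and E3 ligases and 0 of 8 beta-catenin targets. The medians of these lists were 0.10, −0.002, 0.06, 0.03, −0.07 and −0.35, against −0.0007 over all genes. All 8 tested targets had a negative estimate, from −0.79 to −0.14, in all fibroblasts. Within the subtypes this was 6 of 8 in the Col15a1/Ntm cells (median −0.12), 6 of 8 in Dcdc2a/Cyp26b1 (−0.18), 5 of 8 in Igfbp3/Moxd1 (−0.07), 4 of 8 in Mfap4/Eln (0.06), 4 of 6 in Dapl1/Msln (−0.18) and 2 of 6 in Nppc/Slc16a9 cells (0.20). The Col15a1/Ntm cells have the highest Axin2 and made up 25.8 and 26.4% of fibroblasts in the NdpWT libraries and 10.9 and 16.2% in the NdpKO libraries. The part of these shares in the list's median was not tested. The lists' medians lay between −0.69 and 0.27 in the single subtypes.

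In endothelial cells 1 of 5 tested ligands fell and none rose. Wnt5a was at 26.4 and 22.8 CPM in NdpWT replicates 1 and 2 and at 12.6 and 8.26 CPM in NdpKO replicates 1 and 2, from 85, 202, 78 and 46 UMIs. Both NdpKO libraries lay below both NdpWT libraries. The log2 change was −1.24 ± 0.24 with edgeR adjusted p of 0.0212, while 173 of 12667 genes (1.37%) fell and 2.3% were called in either direction. The adjusted p lay between 1.29e-05 and 0.0426 over 9 alternatives, and the change between −1.58 without NdpKO replicate 1 and −0.96 without NdpKO replicate 2.

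These Wnt5a levels were close to those of cells not known as its source. Erythroid cells had 14.2, 21.5, 22.3 and 17.5 CPM and no call (0.19 ± 0.31, edgeR adjusted p = 0.999). Macrophages had 1.94 to 4.56 CPM. A UMI of Wnt5a was found in 16.2 and 11.7% of NdpWT and 9.03 and 4.61% of NdpKO endothelial cells. After thinning the shares were 7.24, 3.47, 2.39 and 1.15%, against 2.41 to 2.94% of erythroid cells and 0.0995 to 1.17% of macrophages. The median depth was 6885 to 15532 UMIs per endothelial cell. The NdpKO shares were thus at or below the erythroid share, and the NdpKO levels lay below the erythroid and above the macrophage levels. Erythroid cells are not a clean floor, because a cluster of 109 of them had the fibroblast markers Dcn, Slc6a13 and Col3a1 among its leading genes. Whether NdpKO endothelial cells express Wnt5a was not tested.

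Markers of other cells were also present in the endothelial class. All 10 fibroblast markers were detected in each library, with summed levels of 1050 and 1669 CPM in NdpWT and 2347 and 1654 CPM in NdpKO. The 10 mural markers summed to 73.0 and 107 CPM in NdpWT and to 24.1 and 44.7 CPM in NdpKO, with Kcnj8 at 0 in NdpKO replicate 1. In mural cells themselves the same markers summed to 23104 to 27854 CPM and Wnt5a was at 18.7 to 28.1 CPM. The part of RNA from other cells in the endothelial values of Wnt5a and Wnt5b was not tested. Endothelial cells with at most 1 UMI of Dcn, Col1a1, Col1a2 and Lum had Wnt5a at 28.3 and 17.6 CPM in NdpWT and 8.67 and 2.52 CPM in NdpKO (−2.04 ± 0.45, edgeR adjusted p = 0.04997), where 2.21% of genes were called and 1.37% fell. This last call was lost with plain library totals (0.0577) and with the stricter cell filter (0.292).

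Wnt5b pointed the other way in the same cells but did not pass. It was at 12.4 and 16.6 CPM in NdpWT replicates 1 and 2 and at 24.0 and 33.2 CPM in NdpKO replicates 1 and 2, from 40, 147, 148 and 185 UMIs. Both NdpKO libraries lay above both NdpWT libraries. The log2 change was 0.91 ± 0.22 with edgeR adjusted p of 0.0621. The adjusted p lay between 0.000955 and 0.180 over 9 alternatives. It was under the threshold with no filter on low counts (0.000955) and with the replicate number as a block (0.00661). It was also under it without NdpWT replicate 2 (0.0321) and without NdpKO replicate 1 (0.00929), where that genotype is 1 library and the spread is that of the other pair. Without NdpWT replicate 1 it was 0.180.

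The endothelial class held 2 clusters, 10 and 17, which were looked at apart after these values were seen. Cluster 10 numbered 205 (NdpWT 1), 774 (NdpWT 2), 174 (NdpKO 1) and 344 (NdpKO 2). Cluster 17 numbered 67, 299, 136 and 177 in the same order, a larger part of the class with NdpKO than with NdpWT. The part of this mix in the class-level changes of Wnt5a and Wnt5b was not tested. In cluster 10 (1497 cells), led by Cldn5 and Kdr, Wnt5b was at 3.05 and 8.59 CPM in NdpWT and 15.8 and 34.1 CPM in NdpKO (1.90 ± 0.51, edgeR adjusted p = 0.162). In cluster 17 (679 cells), led by Eln and Fbln5, it was at 35.8 and 37.6 CPM in NdpWT and 33.3 and 31.9 CPM in NdpKO (−0.18 ± 0.21), where 0.00921% of genes were called. The difference between the clusters' changes was −2.01 with edgeR adjusted p of 0.220, so it was not called, while 0.813% of genes were. With 1 library left out it ran from −3.04 without NdpWT replicate 2 to −1.40 without NdpKO replicate 2. It passed without NdpKO replicate 1 (0.0187), with a single NdpKO library, and with no filter on low counts (8.82e-07). Within cluster 10 Wnt5b passed with DESeq2 (0.0113), the replicate block (0.00182), no filter (1.96e-08), and, with a single library in 1 genotype, without NdpWT replicate 2 (0.0385) or NdpKO replicate 1 (0.00451). The other 4 alternatives did not pass, up to 0.215.

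Wnt5a in cluster 10 was at 34.4 and 23.7 CPM in NdpWT and 10.9 and 9.49 CPM in NdpKO (−1.47 ± 0.27, edgeR adjusted p = 0.0112), where 3.14% of genes were called and 1.58% fell. Without NdpWT replicate 1 the adjusted p was 0.0516. In cluster 17 Wnt5a was at 6.50 and 20.4 CPM in NdpWT and 14.6 and 6.37 CPM in NdpKO, overlapping between genotypes (−0.49 ± 0.54). The clusters' changes in Wnt5a were not shown to differ (0.85, edgeR adjusted p = 0.846), and that difference ran from 0.22 without NdpWT replicate 1 to 2.44 without NdpWT replicate 2, with no call.

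**Figure D4:**
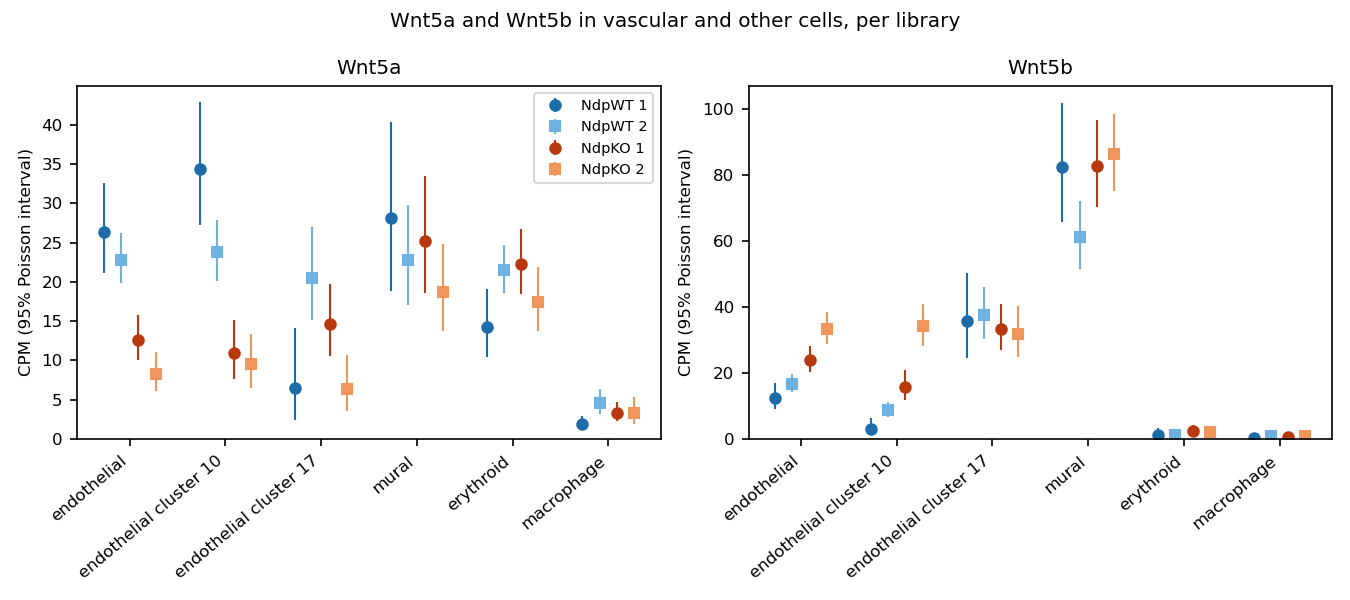
Wnt5a and Wnt5b in CPM in endothelial cells, their 2 clusters, mural cells, erythroid cells and macrophages, each point 1 library with its exact 95% Poisson interval. In the endothelial class Wnt5a is lower in both NdpKO libraries (12.6 and 8.26 CPM), at or below the erythroid level of 14.2 to 22.3 CPM.

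Rspo3 and Wnt6 in endothelial cells rested on few UMIs. Rspo3 was at 2.48 and 6.33 CPM in NdpWT and 10.9 and 8.26 CPM in NdpKO (0.95 ± 0.38, edgeR adjusted p = 0.304), and at −0.24 ± 0.58 in the endothelial cells with at most 1 UMI of the 4 fibroblast genes. Wnt6 was at 0.621, 6.67, 6.16 and 4.67 CPM, from 2 UMIs in NdpWT replicate 1. Without NdpWT replicate 2 the edgeR adjusted p was 0.0453 for Rspo3 and 0.0427 for Wnt6. That fit sets 1 NdpWT library, with 8 UMIs of Rspo3 and 2 of Wnt6, against the NdpKO pair, which alone gives the spread. No other alternative run passed. Of the pathway lists in endothelial cells, 6 of 8 tested beta-catenin targets fell, Axin2, Lef1, Tcf7, Nkd1, Apcdd1 and Sp5. Over all genes 173 of 12667 (1.37%) fell. The list median was −0.89 against −0.004 over all genes. Of the other lists 0 of 8, 0 of 11, 0 of 11 and 0 of 3 tested genes passed. In cluster 10, 4 of the 8 targets fell (1.58% of all genes), and in cluster 17, 0 did (0.00921% of genes called). In endothelial cells with at most 1 UMI of the 4 fibroblast genes 3 fell (1.37% of all genes). All 8 estimates were negative in each, with medians of −0.88, −0.62 and −0.86.

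In mural cells, where Wnt5b is highest, it was higher in 3 libraries than in NdpWT replicate 2, with a change of 0.31 ± 0.19 and edgeR adjusted p of 0.855, while 0.037% of genes were called. The other 3 ligands tested there, Wnt4, Wnt5a and Wnt6, were at −0.22, −0.15 and −0.53. In the other 6 classes tested, 0 members were called, while the percent of all genes called was 0.008 in macrophages, 0.0107 in neurons outside the granule lineage and 0 in the rest. Of these members 1 had an unadjusted p under 0.05, Wnt6 in erythroid cells (1.11 ± 0.35, edgeR adjusted p = 0.999), where 248 of 10864 genes had one. With a single NdpWT library, Wnt6 was called there without NdpWT replicate 2 (0.0102), and Wnt4 in the granule neuron lineage without NdpWT replicate 1 (−0.97, edgeR adjusted p = 0.0206), where the change without NdpWT replicate 2 was 0.16.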

How the data were processed

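The count matrices deposited by the authors for 4 libraries hold UMI counts per gene and cell barcode. The submitters' processing notes name Cell Ranger 6.1.2 and mm10, and 500 UMIs was the least in any barcode. Each library was mapped to its group by its title. The members, pathway lists and tests were chosen with earlier results of these data known. Each library is 1 pool, so p-values measure the spread between pools of cells.

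Cells with at least 500 genes, 1000 UMIs and at most 10% mitochondrial UMIs were kept, and doublets were called with Scrublet (0.8% expected per 1000 barcodes) and removed: 1.70 to 2.59% were called, against 10.3 to 15.3% expected, so some remain. The 4 libraries held 114363848 to 125981161 UMIs. Scanpy 1.11.5 clustered the cells (2000 variable genes without the 8 ligands, 30 components, 20 neighbours, Leiden resolution 1). A cluster was named where at least 3 markers of a list were among its top 50 genes by fold over the median cluster, a rule settled after the clusters were seen. Fibroblasts were clustered again at resolution 0.5. Of 17 subclusters 6 were compared, each with at least 50 cells in every library. The other 11 were left out as low in depth (3), cycling (2), bearing markers of other classes (3) or too small (3). Arachnoid barrier markers were exempt from this rule, which kept the Dapl1/Msln cells. Rebuilt names may differ from the study's.

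Levels are CPM of summed UMIs with exact 95% Poisson intervals. Since UMIs were counted near the 3' end, CPM was not scaled by length, and levels are compared within a gene only. Sums per library were tested with edgeR 4.0.16 (R 4.3.3; TMM, filterByExpr with a minimum count of 10, robust quasi-likelihood, Benjamini-Hochberg over all genes of a group, threshold 0.05), with DESeq2 1.42.0 as an alternative. The printed approximate intervals are the estimate ± 1.96 SE. The test was checked on simulated data with 200 genes changed 2-fold. Of the changed genes tested, it recovered 66.3% in fibroblasts, 56.1 to 74.3% in the 6 subtypes and 64.0% in endothelial cells. In the other classes it recovered 6.28% (erythroid cells) to 69.4% (macrophages). A change that was not called may therefore still be present. Unchanged genes of the simulated data were called too. There were 6 beside 132 recovered in fibroblasts, 5 beside 126 in endothelial cells and 16 beside 135 in the Col15a1/Ntm cells. Every ligand was named with its values, or their range, in named classes and compared subtypes with at least 10 UMIs in a library, pathway genes where called in fibroblasts or a subtype, otherwise the 3 highest of their list in fibroblasts; Lgr5, Lgr6 and the endothelial genes were named after their values were seen. Shares of cells were thinned to 2000 UMIs. Same-numbered replicates deviated together with correlations of −0.08 to 0.38, and the labels do not tie the numbers to litters.

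Gene models are those of GENCODE M21 (GRCm38): Wnt4, chromosome 4, 137277489 to 137299726, Wnt5a, chromosome 14, 28504750 to 28527448, Wnt5b, chromosome 6, 119432531 to 119544347, Wnt6, chromosome 1, 74771892 to 74785322, Wnt2b, chromosome 3, 104945272 to 104961921, Rspo1, chromosome 4, 124986430 to 125009099, Rspo2, chromosome 15, 43020794 to 43170826, and Rspo3, chromosome 10, 29452416 to 29535867. Wnt2b and Rspo3 each overlap a predicted gene on the same strand, which could take up reads.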

Additional observations from a re-analysis of the deposited data

How the results depend on the processing

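Of 263 alternative values for 29 followed ligand changes, 235 kept their direction and their side of the threshold, 15 came to pass it, 3 no longer passed it and 10 reversed, and no reversed change had passed. The ligands called over all classes (1) numbered 2 with no filter on low counts and 2 with the replicate block, which in both cases added Wnt5b in endothelial cells, and 1 to 5 with 1 library left out. The ligands called over all subtypes (0) numbered 1 with the replicate block, Wnt4 in the Igfbp3/Moxd1 fibroblasts, where the block called 297 of 12002 genes. The block changed no other ligand's call in the classes and subtypes. All genes called in endothelial cells (291) numbered 746 with no filter, 554 with the replicate block and 228 to 569 with 1 library left out, and in fibroblasts (0) 33, 348 and 0 to 31, and 49 with DESeq2. The reversed changes were Rspo3 in all fibroblasts, −0.69 to 0.42, and in the Dapl1/Msln cells, −0.34 to 0.11, Wnt5a in cluster 17, −1.25 to 0.71, and in the Mfap4/Eln cells, −0.29 to 0.0014, Wnt6 in the Igfbp3/Moxd1 cells, −0.25 to 0.0062, and in the Dcdc2a/Cyp26b1 cells, −0.20 to 0.0082, Wnt4 in all fibroblasts, −0.46 to 0.10, and Wnt2b in all fibroblasts, −0.16 to 0.21, each with 1 library left out, and Wnt6 in all fibroblasts, −0.049 with the stricter cell filter. The causes were not tested. The group with the highest mean level was a fibroblast subtype for 7 of 8 ligands under every alternative run, including subclusters at resolution 0.3 and 1. Rspo2 and Wnt2b, with at most 104 and 95 UMIs per library over all cells, were too few to follow in most groups. Splitting the endothelial class, restricting it by fibroblast UMIs and leaving out mixed fibroblast subclusters were chosen after seeing the data. With 1 library left out, the lone library of that genotype is assumed to vary like the other pair.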
